A study of Mus musculus with 8 samples.

Results

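The transcripts of 9 structural proteins of the meiotic chromosome axis and the synaptonemal complex, Sycp1, Sycp2, Sycp3, Syce1, Syce2, Syce3, Tex12, Hormad1 and Hormad2, were followed in RNA-seq of whole mouse testes that carry or lack Morc2b. They were taken by gene symbol, by a rule that uses no measured value, and are 9 of the 24651 genes in the count tables. Read counts were available from 4 wild type and 4 Morc2b-/- pairs of testes, all taken at postnatal day 12 from mice of mixed strain background. In the mutant allele the PGKNeo cassette replaces the whole coding region, which lies in a single exon, and the line was derived from a single embryonic stem cell clone and kept by intercrosses of heterozygotes. The labels call the controls wild type, whereas the design text of the series calls them Morc2b+/-, and this was not resolved here. At this age the first wave of germ cells is in early meiotic prophase, and the comparison asks whether loss of MORC2B, a germ cell ATPase required for meiosis, alters the transcriptome before testis histology differs.

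The synaptonemal complex is the protein ladder that holds homologous chromosomes together along their length during meiotic prophase. SYCP2 and SYCP3 form the axial elements, which become the lateral elements, and the HORMA-domain proteins HORMAD1 and HORMAD2 sit on axes that have not yet synapsed. SYCP1 dimers span the gap as transverse filaments, with their N termini overlapping in a central element that contains SYCE1, SYCE2, SYCE3 and TEX12. Axes form at leptonema and synapsis begins at zygonema, which dates the assembly of the proteins and not the onset of their transcripts.

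Between 27144796 and 36941755 counts per library fell on listed transcripts. Levels are given as CPM, read counts scaled to a common library size with TMM factors for depth and composition, and n is 4 pairs of testes per genotype throughout. The transcript of Morc2b itself, which checks the labels, was at 11.7, 16.2, 0.857 and 40.0 CPM in the wild type libraries (replicates 1 to 4, an order kept for every gene below) and at 0.323, 0.270, 3.29 and 0.0688 CPM in the Morc2b-/- libraries. The library labelled wild type replicate 3 therefore had less Morc2b than the library labelled Morc2b-/- replicate 3, and the genotype comparisons of the members are given with and without both. Over the 8 libraries Morc2b was lower in the mutant by 4.09 on the log2 scale (log2 fold change -4.09, SE 1.21, unadjusted p = 0.0079, edgeR quasi-likelihood test, adjusted p = 0.9998). As for the tissue, Sertoli cell markers summed to 7010 to 8057 CPM in wild type and 7697 to 8566 CPM in Morc2b-/- libraries, spermatogonial markers to 1200 to 1568 and 1357 to 1544 CPM, and leptotene and zygotene markers to 242 to 401 and 209 to 412 CPM. Pachytene markers summed to 147 to 480 and 145 to 280 CPM, Leydig cell markers to 106 to 565 and 111 to 621, peritubular myoid markers to 714 to 1497 and 732 to 911, and macrophage markers to 126 to 147 and 109 to 176. Spermatid markers stood out in 1 library of each genotype, with a sum of 146 CPM (wild type replicate 1) and 295 CPM (Morc2b-/- replicate 3) beside 1.85 to 32.8 CPM elsewhere. Their part in the values below was not tested. Without both libraries, log2 fold changes were -0.23 for Sycp1, -0.24 for Sycp2, -0.09 for Sycp3, -0.10 for Syce1, -0.15 for Tex12 and -0.18 for Hormad2. As with all 8 libraries, no gene passed the adjusted threshold, so the 0 of 8 tested members past it is no check.

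Not all 9 genes could be measured equally well, because the deposited tables count reads per transcript and set aside reads that match more than 1 listed transcript. Sycp1, Sycp2, Sycp3, Syce1, Tex12 and Hormad2 have 1 listed transcript each, so 6 of the 9 members keep the reads that isoforms would otherwise share. Hormad1 and Syce2 have 4 listed transcripts each, and in both only 1 of the 4 received any count. Those counts came to 200 over all 8 libraries for Hormad1 and 487 for Syce2, against 10961 to 178400 for the members with 1 transcript. Syce3 has 2 listed transcripts and received 1 count in all, in wild type replicate 2, and so it was not tested. The values of Hormad1, Syce2 and Syce3 are not a measure of how strongly these genes were expressed.

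The promoters of Sycp1, Sycp2, Syce1 and Tex12 are shown because these genes form the pairs whose levels followed each other most closely from library to library, and that of Sycp3 because it held the most motif matches among members with 1 transcript. Each line gives the 250 bases before the transcription start, 5′ to 3′ on the gene's strand, from RefSeq on GRCm38.p6. Capitals mark matches on either strand to TCCCGC, the E2F6 element of a complex known to silence germline genes in somatic cells, or to CACGTG, the E-box bound by MAX and its partners.
Sycp1, chr3:102936101-102936350, minus strand: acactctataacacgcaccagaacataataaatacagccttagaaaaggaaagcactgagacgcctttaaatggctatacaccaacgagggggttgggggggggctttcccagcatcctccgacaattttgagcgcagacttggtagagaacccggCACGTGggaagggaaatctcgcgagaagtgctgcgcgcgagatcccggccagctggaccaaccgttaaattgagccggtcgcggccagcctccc
Sycp2, chr2:178407659-178407908, minus strand: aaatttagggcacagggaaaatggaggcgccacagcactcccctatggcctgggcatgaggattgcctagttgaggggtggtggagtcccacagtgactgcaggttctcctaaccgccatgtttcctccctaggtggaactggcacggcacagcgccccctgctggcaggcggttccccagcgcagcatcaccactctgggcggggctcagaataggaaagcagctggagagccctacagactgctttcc
Sycp3, chr10:88459337-88459586, plus strand: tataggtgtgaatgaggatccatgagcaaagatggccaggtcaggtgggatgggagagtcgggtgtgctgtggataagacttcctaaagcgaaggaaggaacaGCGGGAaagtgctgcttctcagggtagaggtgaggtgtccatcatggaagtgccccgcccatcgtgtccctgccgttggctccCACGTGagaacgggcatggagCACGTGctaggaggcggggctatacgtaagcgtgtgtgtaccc
Syce1, chr7:140787855-140788104, minus strand: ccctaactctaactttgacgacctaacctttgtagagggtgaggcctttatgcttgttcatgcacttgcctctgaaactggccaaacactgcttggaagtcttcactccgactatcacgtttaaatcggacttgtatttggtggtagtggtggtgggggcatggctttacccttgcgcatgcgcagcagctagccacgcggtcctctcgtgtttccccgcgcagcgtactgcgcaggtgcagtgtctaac
Tex12, chr9:50561269-50561518, minus strand: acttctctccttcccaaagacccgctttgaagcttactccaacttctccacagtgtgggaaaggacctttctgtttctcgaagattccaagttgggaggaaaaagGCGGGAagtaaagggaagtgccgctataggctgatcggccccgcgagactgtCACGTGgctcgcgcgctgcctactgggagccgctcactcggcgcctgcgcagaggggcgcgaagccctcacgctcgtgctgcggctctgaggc
The 9 members have 12 windows, because some have 2 start sites, and the windows of such a gene overlap. CACGTG was found in 5 of the 9 members, Sycp1, Sycp3, Syce2, Tex12 and Hormad1. Per window this was 6 of the 12, against 6.02% of 32851 promoter windows of the same length. TCCCGC was found in 4 members, Sycp3, Syce2, Tex12 and Hormad1, or 6 of the 12 windows, and in 16.9% of all windows. The element CNCCTCAG is bound by STRA8 and MEIOSIN, the factors that switch on the meiotic program. This element was found in 2 members, Syce2 and Hormad2, or 2 of the 12 windows, and in 6.42% of all windows. In Syce2 it overlapped a TCCCGC match. No match to any of these motifs was found in Sycp2, Syce1 or Syce3. These matches are descriptions of the sequence only.

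The axial element genes were abundant and varied widely within each genotype. Sycp2, on the minus strand at chr2:178079998-178142390 (NCBIM37, mm9, as all gene positions here), encodes the scaffold that recruits SYCP3 to the axis. It was at 619, 910, 572 and 1031 CPM in the wild type and at 537, 581, 413 and 1016 CPM in the Morc2b-/- testes. Replicate 4 was the highest library in both genotypes, the other 3 mutant libraries lay around or below the lowest wild type library, and the groups overlapped. The means were 783 ± 223 and 637 ± 263 CPM (SD), with a log2 fold change of -0.30 (SE 0.29, 95% interval -0.94 to 0.35).

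Sycp3, on the plus strand at chr10:87922314-87935981, encodes the protein whose filaments compact the axis. Its levels were 385, 558, 305 and 667 CPM in wild type and 267, 515, 366 and 661 CPM in mutant testes. The mutant values spanned almost the same range as the wild type values. The means were 479 ± 164 and 452 ± 172 CPM, for a log2 fold change of -0.08 (SE 0.31, 95% interval -0.78 to 0.61).

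Of the HORMA-domain genes, Hormad2, on the minus strand at chr11:4245817-4341108, was at 40.3, 55.2, 32 and 55.2 CPM in wild type and at 29.9, 48.0, 35.2 and 48.1 CPM in Morc2b-/- testes. HORMAD2 helps recruit the ATR kinase to unsynapsed axes. Replicates 2 and 4 were the high libraries in both genotypes. The means were 45.7 ± 11.5 and 40.3 ± 9.21 CPM, a difference smaller than the SD of either group (log2 fold change -0.18, SE 0.21, 95% interval -0.66 to 0.30). Hormad1, on the plus strand at chr3:95363599-95391593, encodes the axis protein needed for break formation and homolog pairing. It retained 0.572, 0.770, 0.964 and 0.849 CPM in wild type and 0.388, 1.19, 0.430 and 1.13 CPM in Morc2b-/- testes, from 12 to 44 counts per library. At this depth the 95% interval of its log2 fold change ran from -0.94 to 0.94.

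Sycp1, on the minus strand at chr3:102622422-102740023, encodes the transverse filament. It was at 548, 655, 399 and 733 CPM in wild type and at 377, 412, 322 and 735 CPM in Morc2b-/- testes. Morc2b-/- replicates 1 to 3 lay around or below the lowest wild type library, while Morc2b-/- replicate 4 was level with the highest. The means were 584 ± 145 and 462 ± 186 CPM, and the log2 fold change of -0.34 was the largest in size of the 8 tested members (SE 0.27, 95% interval -0.95 to 0.27).

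The comparison of Sycp1 and Sycp2 moved most with a single mutant library. With Morc2b-/- replicate 4 left out, Sycp1 had a log2 fold change of -0.66 (unadjusted p = 0.0093, adjusted p = 0.9998, edgeR) and Sycp2 one of -0.62 (unadjusted p = 0.023). Without wild type replicate 4, by contrast, they were -0.21 and -0.14. Neither gene passed the adjusted threshold in any fit that left out 1 library, and without the 2 libraries out of order in Morc2b they were -0.34 and -0.26.

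Among the members with 1 transcript, the central element genes Syce1 and Tex12 varied least. Syce1, on the minus strand at chr7:147963128-147973753, encodes a protein that joins the transverse filaments to the rest of the central element. Its levels were 135, 174, 138 and 161 CPM in wild type and 126, 163, 143 and 156 CPM in Morc2b-/- testes. The highest and lowest of the 8 libraries differed 1.38-fold, against 2.28-fold for Sycp1, 2.50-fold for Sycp2 and 2.49-fold for Sycp3. The means were 152 ± 18.6 and 147 ± 16.2 CPM (log2 fold change -0.05, SE 0.10), and the 95% interval of -0.29 to 0.19 was the narrowest among the members.

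Tex12, on the minus strand at chr9:50365253-50369373, encodes the partner with which SYCE2 builds the fibres that extend the complex along the chromosome. It was at 48.8, 68.9, 50.4 and 62.4 CPM in wild type and at 40.7, 65.8, 54.7 and 58.2 CPM in Morc2b-/- testes. Morc2b-/- replicate 1 was the lowest library, and the other 3 mutant libraries lay within the wild type range. The means were 57.7 ± 9.64 and 54.8 ± 10.5 CPM (log2 fold change -0.07, SE 0.16, 95% interval -0.43 to 0.29). Syce2, on the plus strand at chr8:87396010-87412120, retained 2.56, 2.09, 2 and 1.01 CPM in wild type and 1.13, 2.49, 1.78 and 2.03 CPM in Morc2b-/- testes, with a log2 fold change of -0.04 (95% interval -0.78 to 0.69). Syce3 lies on the minus strand at chr15:89220605-89240934.

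**Figure D1:**
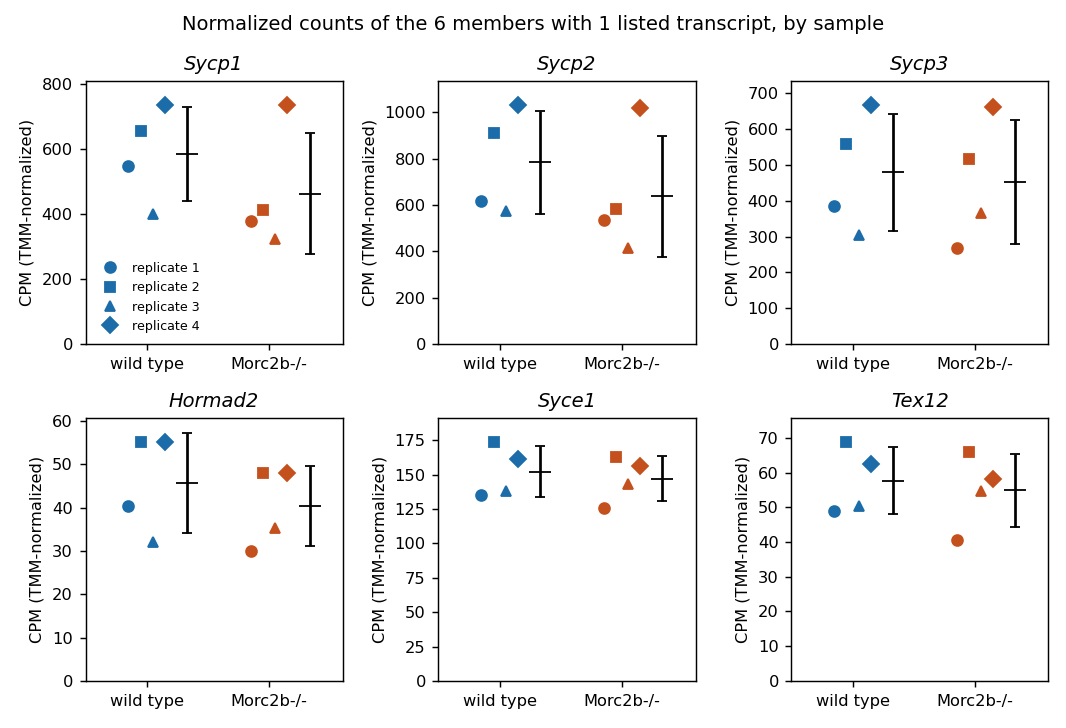
TMM-normalized CPM (y axis, from 0, a separate scale for each gene) of the 6 members with 1 listed transcript in wild type (blue) and Morc2b-/- (orange) testes, with 1 symbol per library and the mean ± SD of 4 beside it. The groups overlap in all 6 genes, and Sycp1 and Sycp2 are low in Morc2b-/- replicates 1 to 3 but not in replicate 4.

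The unadjusted p of the members ran from 0.239 for Sycp1 to 0.999 for Hormad1, and every adjusted p was 0.9998 (edgeR, two-sided). Set against all genes, 0 of the 8 tested members passed an adjusted p of 0.05, and 0 of 13507 tested genes (0%) did so. At an unadjusted p under 0.05, 0 of 8 members were called, against 1.34% of all tested genes lower and 0.503% higher in Morc2b-/- testes. The groups overlapped in all 8 members, whereas they did not overlap in 0.881% of tested genes that were lower and 0.407% that were higher in Morc2b-/- testes. Log2 fold changes were negative for 8 of 8 members and for 49.2% of tested genes, with medians of -0.08 and 0.00. The 8 include Hormad1 (-0.00049) and Syce2 (-0.04), which kept few counts. Members also rose and fell together over the same libraries, so their signs are not independent. Leaving out 1 library turned the sign for Sycp3, Syce1, Syce2, Tex12 and Hormad1, but for none of Sycp1, Sycp2 and Hormad2. Without the 2 libraries out of order in Morc2b, log2 fold changes were -0.16 for Sycp3, -0.08 for Syce1, -0.13 for Tex12, -0.26 for Hormad2, -0.00 for Syce2 and 0.32 for Hormad1, and 0 of 8 members passed either threshold. In a whole testis, fewer spermatocytes and less RNA per spermatocyte cannot be told apart. The precision differed between members. The 95% interval ran from -0.29 to 0.19 for Syce1 but from -0.95 to 0.27 for Sycp1 on the log2 scale. With these samples, changes inside a gene's own interval, no change among them, are not excluded.

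**Figure D2:**
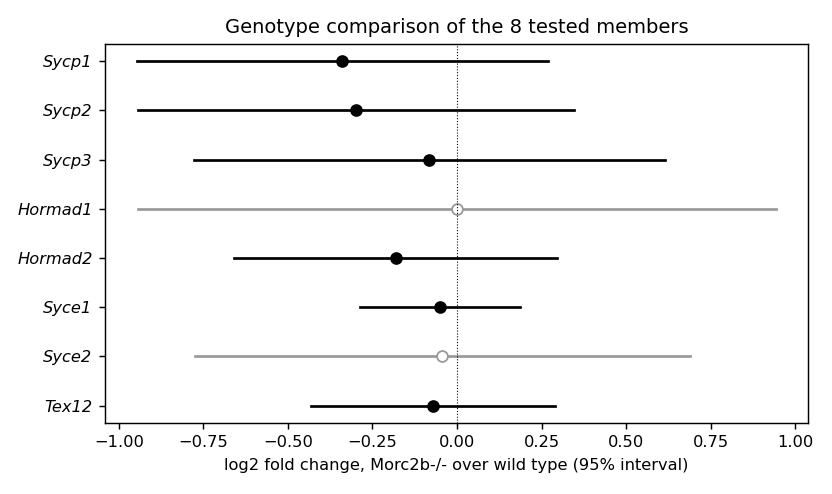
Log2 fold change, Morc2b-/- over wild type (x axis), with its 95% interval for the 8 tested members, from edgeR on 4 against 4 libraries. Open grey symbols mark the members with several listed transcripts and few counts, and every interval includes 0.

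Levels between genes were compared per length, as CPM per kilobase of the longest coding transcript. In wild type testes Sycp3 was highest, at 420 ± 144 CPM per kb, followed by Sycp1 at 170 ± 42 and Sycp2 at 137 ± 39. The central element genes Syce1 at 104 ± 12.7 and Tex12 at 93.4 ± 15.6 CPM per kb came next, and Hormad2 was lowest at 23.2 ± 5.84. In Morc2b-/- testes the order by mean level was the same, with 397 ± 151, 134 ± 54, 111 ± 46, 101 ± 11.1, 88.9 ± 17.1 and 20.5 ± 4.68 CPM per kb. In both genotypes the mean ± SD of neighbours overlapped from Sycp1 down to Tex12, whereas Sycp3 above them and Hormad2 below them stood apart.

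Although genotype did not separate the libraries, the members were high or low together in many of them. Together they took 0.180, 0.244, 0.152 and 0.266% of all transcript counts in the wild type and 0.138, 0.179, 0.134 and 0.263% in the mutant libraries. Of the 6 members with 1 transcript, the highest library was wild type replicate 2 for 3, wild type replicate 4 for 2 and Morc2b-/- replicate 4 for 1, and the lowest was Morc2b-/- replicate 1 for 4 and Morc2b-/- replicate 3 for 2. In Sycp3, Hormad2, Syce1 and Tex12, replicates 2 and 4 of both genotypes all lay above replicates 1 and 3 of both genotypes. The labels name no litter or day that same-numbered libraries would share. The SD of log2 CPM within wild type and within Morc2b-/- libraries was 0.51 and 0.57 for Sycp3, 0.42 and 0.55 for Sycp2, 0.38 and 0.52 for Sycp1, 0.38 and 0.34 for Hormad2, 0.24 and 0.29 for Tex12 and 0.17 and 0.16 for Syce1, against medians of 0.19 and 0.17 over all tested genes. Of the 6 members with 1 transcript, all but Syce1 were thus above the median gene in both genotypes.

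How closely 2 genes kept step was measured by the SD of their log2 ratio over the 8 libraries, which is 0 when the ratio is constant. Among the 15 pairs the median SD was 0.30. Syce1 and Tex12, both of the central element, kept the most constant ratio (SD 0.10), followed by Sycp1 and Sycp2 (SD 0.12), and Tex12 and Hormad2 (SD 0.17). The least constant ratios were those of Sycp1 or Sycp2 with Syce1 or Tex12 (SD 0.40 to 0.41). The axial partners Sycp2 and Sycp3 followed each other less closely (SD 0.30) than Sycp2 and the transverse filament gene Sycp1. All pairs come from the same 8 libraries and share their depth, so these values are descriptive, and genes with few counts were left out.

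**Figure D3:**
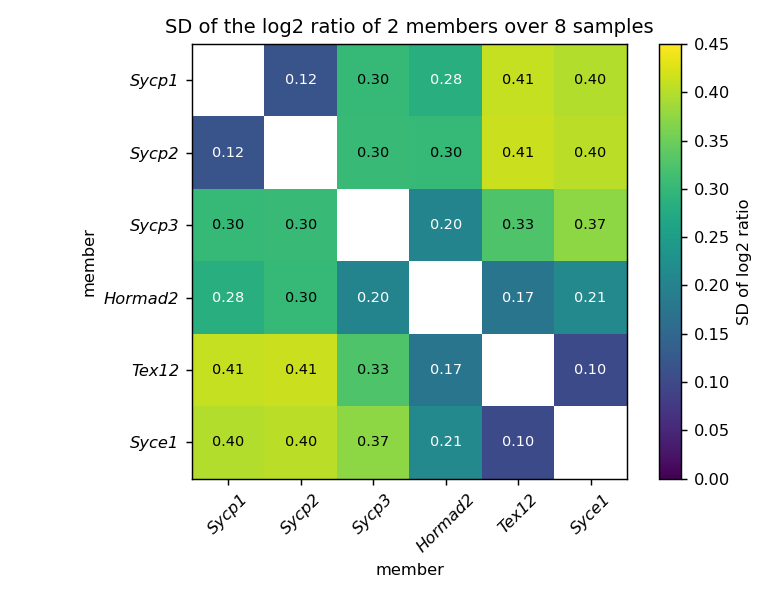
SD of the log2 ratio of each pair of the 6 members with 1 listed transcript over all 8 libraries (colour and number), where a low value means that the ratio stayed constant. The lowest values are 0.10 for Syce1 with Tex12 and 0.12 for Sycp1 with Sycp2, and the highest, 0.41, join Tex12 to Sycp1 and to Sycp2.

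The log2 ratios of some pairs moved between libraries, and their difference between genotypes was not tested. The log2 ratio of Sycp3 to Sycp2 was -0.68, -0.71, -0.91 and -0.63 in wild type and -1.01, -0.17, -0.17 and -0.62 in the mutant libraries. Sycp3 was thus nearer to Sycp2 in Morc2b-/- replicates 2 and 3 than in any other library, and the groups overlapped (means -0.73 ± 0.12 and -0.49 ± 0.40). The log2 ratio of Syce1 to Sycp1 was -2.02, -1.91, -1.53 and -2.18 in wild type and -1.58, -1.34, -1.17 and -2.24 in mutant libraries, a difference of 0.33 between means. Morc2b-/- replicates 1 to 3 lay above wild type replicates 1, 2 and 4, but wild type replicate 3 reached their range and Morc2b-/- replicate 4 was the lowest library, so the groups overlapped. Sycp1 to Sycp2 gave -0.18, -0.47, -0.52 and -0.49 in wild type and -0.51, -0.49, -0.36 and -0.47 in mutant libraries, and wild type replicate 1 thus stood apart. Tex12 to Syce1 was at -1.41 ± 0.07 and -1.44 ± 0.14. The longest coding transcripts of Sycp1 (3437 bp) and Sycp2 (5717 bp) are also the longest of the 6, against 617 to 1969 bp for the others. Across 1468 long genes (at least 5000 bp) and 1106 short genes (at most 1500 bp) the long genes exceeded the short ones, in median log2 CPM centred on each gene's mean, by -0.08, 0.04, 0.05 and 0.01 in wild type and by 0.13, -0.01, -0.12 and -0.03 in mutant libraries, and the part of length in the ratios was not tested.

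As a list, markers of leptotene and zygotene spermatocytes, the cells in which the complex is assembled, were low where the members' mean was low. Both means, of log2 CPM centred on each gene, were below 0 in replicates 1 and 3 of both genotypes and above 0 elsewhere. The list, 7 genes that include Prdm9, Dmc1, Spo11 and Meiob, summed to 259, 401, 242 and 368 CPM in wild type and 209, 374, 265 and 412 CPM in Morc2b-/- replicates 1 to 4. Within their genotypes, the lowest libraries were thus the wild type replicate 3 and the Morc2b-/- replicate 1. The summed CPM of the members was lowest in wild type replicate 3 (1499 CPM) and in Morc2b-/- replicate 3 (1336 CPM). Of the 7 tested marker genes 0 passed an unadjusted p of 0.05, and their median log2 fold change was 0.00. Meiob, which encodes a single-strand DNA binding factor of meiotic recombination, was at 60.4, 90.7, 36.1 and 104 CPM in wild type and 31.1, 81.7, 49.0 and 102 CPM in mutant libraries. Not every gene of the list followed the members. Mei1 (2 listed transcripts) was instead lowest in replicate 4 of both genotypes, at 10.3 and 11.3 CPM. Prdm9 was lower in wild type replicate 4 (92.6 CPM) than in wild type replicate 3 (105 CPM). The mean log2 CPM of the 7 genes, centred over libraries, ran from -0.56 to 0.37, whereas that of the Sertoli cell and spermatogonial markers stayed between -0.28 and 0.22. Within each genotype the spermatogonial mean was lowest in replicate 4 (-0.28 in wild type, -0.13 in Morc2b-/-), where the members' mean was above 0. It was highest in replicate 3 (0.22 and 0.15), where the members' mean was below 0. Other lists moved more over the same libraries, from -1.47 to 1.33 for pachytene, -2.97 to 4.07 for spermatid, -0.72 to 1.10 for Leydig cell and -0.36 to 1.16 for peritubular myoid markers. The part of cell composition in the members' spread was not tested.

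**Figure D4:**
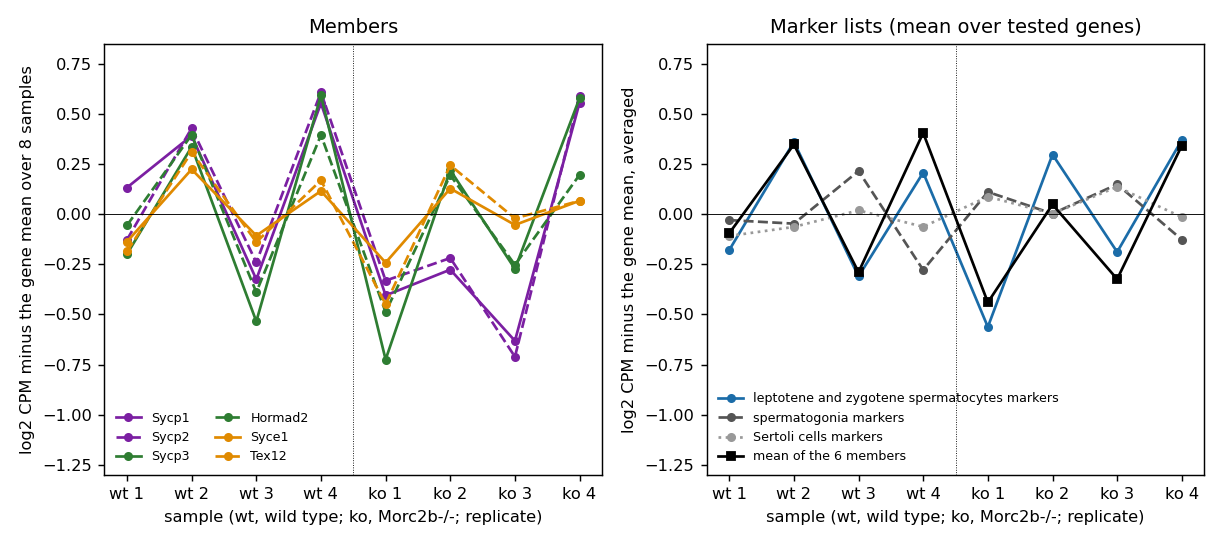
Log2 CPM minus the gene's mean over 8 libraries (y axis) for the 6 members (left) and, averaged over tested genes, for marker lists and the members' mean (right), by library (x axis, wild type then Morc2b-/- replicates). Lines only join the points of 1 gene or list. Sycp1 and Sycp2 lie below their mean in Morc2b-/- replicate 2 where the other 4 members lie above theirs. The leptotene and zygotene markers are low where the members' mean is low. In Morc2b-/- replicate 2 these markers lie above their mean, unlike Sycp1 and Sycp2.

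The genes whose profile was most like the mean of the 8 tested members were sought among 809 genes with a mean of at least 5 CPM and a spread over libraries at least that of the members' mean. Gm16023 (SD of the log2 ratio 0.10), 1700029J07Rik (0.11), Ero1b (0.12), Pbld2 (0.12) and Urb2 (0.13) came closest, against a median of 0.56 over the candidates. Urb2 was at 222, 271, 168 and 297 CPM in wild type and 162, 243, 184 and 294 CPM in Morc2b-/- testes, the same order of libraries within each genotype as in Sycp3. With only the 6 members of 1 transcript in the mean, Urb2 (0.07) and 1700029J07Rik (0.08) came closest.

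Of 14 other genes of the axis, of cohesin and of synapsis, 11 could be tested, and 0 passed the adjusted or the unadjusted threshold. Their median log2 fold change was 0.01, and 5 of the 11 were below 0. The meiotic cohesin genes Stag3, at 680 ± 95.9 and 648 ± 75.8 CPM, and Smc1b, at 594 ± 88.5 and 573 ± 65.2 CPM in wild type and Morc2b-/- testes, had log2 fold changes of -0.07 and -0.05. The cohesin kleisin genes Rec8 and Rad21l had log2 fold changes of 0.06 and 0.15. Six6os1, a further central element gene, had a log2 fold change of 0.22 (SE 0.27), and Sycp2l, a paralog of Sycp2, had -0.47 (SE 0.27) at below 1 CPM. Mei4, whose product acts on the axis in break formation, was the only one of the 11 whose groups did not overlap, at 12.9, 12.7, 13.6 and 12.9 CPM in wild type and 13.9, 15.1, 15.1 and 14.4 CPM in Morc2b-/- testes (log2 fold change 0.17, SE 0.08, unadjusted p = 0.070, adjusted p = 0.9998, edgeR). Of all tested genes, 0.407% were higher and 0.881% lower in Morc2b-/- testes without overlap. Hspa2, the chaperone needed to take the complex apart, was below the count filter at 0.485 ± 0.209 and 0.200 ± 0.044 CPM, from 87 counts in all. Because Hspa2 has 2 listed transcripts whose shared reads are set aside, these values are not a measure of its level. The groups overlapped, with wild type replicate 3 at 0.214 CPM and Morc2b-/- replicates 1 and 4 at 0.226 and 0.241 CPM. Fitted without the filter, Hspa2 had a log2 fold change of -1.28 (unadjusted p = 0.0105, adjusted p = 0.999, edgeR).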

How the data were processed

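Total RNA from 8 pairs of testes was made into stranded mRNA libraries by the authors, who pooled and sequenced them and mapped reads to NCBI37/mm9 with Tophat. The submitters' processing notes name Cufflinks and Cuffdiff. The deposited files hold whole-number read counts per RefSeq transcript. The counting program, its strand setting and its annotation are not given in the sources used here. Of uniquely aligned reads, 26.8% to 28.8% were set aside as ambiguous in each library, a loss that falls on genes with several listed transcripts. Of 35819 listed transcripts, 35522 matched a gene symbol and were summed by it. The 297 unmatched transcripts held 0.484% of counts and were kept as rows of their own. They are among the 24651 rows counted as genes, and were filtered and tested with them.

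Genes were filtered with edgeR's default count filter, TMM-scaled and compared by the quasi-likelihood test (edgeR 4.0.16, R 4.3.3) between 4 wild type and 4 Morc2b-/- samples, with Benjamini-Hochberg adjustment over 13507 genes and a threshold of 0.05. Log2 CPM used a prior count of 2, and intervals are 95%. The p-values measure the spread between pairs of testes. The procedure was tested on simulated data with changes larger than those estimated for any member and with the spread between samples capped. That check does not cover changes of the members' size. Alternatives were RLE, upper-quartile and germ cell gene scaling, DESeq2 1.42.0, limma-voom (limma 3.58.1), omitting the filter, requiring 10 or more counts per sample, transcripts as units, a replicate block and each sample left out in turn. Counting error is small beside the spread between samples for members with 1 listed transcript. The text names the members, Morc2b, genes of the axis and marker lists with an unadjusted p under 0.05 or groups that did not overlap (at most 5 a list), and the 5 genes nearest in profile. Further genes of the lists are named for their role, picked after their values were seen. The members and lists were chosen with earlier results of these data known. Gene positions and lengths are from GENCODE M1 on NCBIM37, promoter sequences from RefSeq on GRCm38.p6, and all 9 members were matched to both. The authors' ambiguous and unaligned tallies stayed out of library sizes and tests.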

Additional observations from a re-analysis of the deposited data

Results flagged for a closer look

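In the Morc2b-/- group, Morc2b itself stood apart in replicate 3, at 3.29 CPM against 0.323, 0.270 and 0.0688 CPM in replicates 1, 2 and 4. Its gap to the nearest of the other mutant libraries was 0.921 of the group's range, above Dixon's 95% critical value for 4 samples. It was the 1 such value among 18 groups of 4 examined, and chance gives about 1 in 20 groups. The same library was among the lowest for Sycp1 (322 CPM) and Sycp2 (413 CPM) and held the most spermatid marker RNA (295 CPM in sum). The cause was not tested.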

How the results depend on the processing

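No member passed the adjusted threshold under any of the 19 alternatives. Over all genes 0 passed, except with DESeq2, which called 1 gene, Pkmyt1 (log2 fold change -0.49, adjusted p = 0.0093). Log2 fold changes of Sycp1 (-0.66 to -0.20), Sycp2 (-0.62 to -0.14) and Hormad2 (-0.32 to -0.06) stayed below 0 throughout. Leaving out 1 sample at a time gave -0.32 to 0.12 for Sycp3, -0.10 to 0.022 for Syce1, -0.26 to 0.13 for Syce2, -0.17 to 0.045 for Tex12 and -0.28 to 0.22 for Hormad1, and 0 to 2 members at an unadjusted p under 0.05. The 2, Sycp1 and Sycp2, were called without Morc2b-/- replicate 4, a fit in which 289 of 13767 tested genes were. These 2 members kept a nearly constant ratio (SD 0.12), so their calls are not independent. Of the other axis and synapsis genes, leaving out 1 sample gave 0 to 1 at an unadjusted p under 0.05, while 1 was called with no count filter and 1 without the 2 libraries out of order in Morc2b. In each case it was Hspa2. With samples left out, it passed the count filter only through wild type replicates 1, 2 and 4 (0.491, 0.514 and 0.723 CPM). The mutant libraries held 0.143 to 0.241 CPM, so those calls give no independent support for a difference. The following 2 alternatives were chosen after seeing the data. Without the 2 libraries highest in spermatid markers, Syce2 (0.15) and Hormad1 (0.071) turned sign, and without the 2 libraries out of order in Morc2b, Hormad1 (0.32) did. Morc2b lay between -6.23 and -3.26 in the fits short of 1 sample, and at -6.38 and -6.63 (adjusted p = 0.189) under the 2 added alternatives. The libraries left out for the value of -6.63 were chosen by their Morc2b level, so its larger size is built in and is no check of the labels. Genes at an unadjusted p under 0.05 numbered 249, and 163 with germ cell gene scaling, 422 with no count filter, 421 without the libraries out of order, and 204 to 504 with 1 sample left out. A replicate block gave Sycp1 -0.38 (unadjusted p = 0.014, adjusted p = 0.985) and Sycp2 -0.34 (unadjusted p = 0.018), Morc2b -4.50, and 572 genes and 2 members at an unadjusted p under 0.05, with 0 past the adjusted threshold. The labels give same-numbered samples nothing in common but the number. Deviations of same-numbered samples correlated at -0.16, 0.24, -0.32 and 0.45, against -0.50 to 0.61 for samples of different number. Of the 8 samples, 4 correlated best with their own number. Whether same-numbered samples share a litter or a batch cannot be told from these values. Where not given otherwise the cause was not tested. Depth limits Hormad1, Syce2 and Syce3, which kept few counts.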

Other observations

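Genes closest in profile to the pairs of members that followed each other were sought after the values had been seen, and are descriptions with no test. For the mean of Sycp1 and Sycp2, the nearest of 275 candidate genes was Slc9a2 (SD of the log2 ratio over 8 libraries 0.17). For the mean of Syce1 and Tex12, the nearest of 2230 candidates were Cyb5d2 (0.08), Dnajb6 (0.08), Efcab5 (0.08), Evi5l (0.08) and Ccdc73 (0.09). Piwil1, which encodes the PIWI protein of pachytene spermatocytes, was at 36.2, 46.3, 16.6 and 133 CPM in wild type replicates 1 to 4 and at 15.5, 14.8, 14.7 and 15.8 CPM in Morc2b-/- replicates 1 to 4. Its groups did not overlap (log2 fold change -1.93, SE 0.53, unadjusted p = 0.0051, adjusted p = 0.9998, edgeR). Of all tested genes, 0.881% were lower in Morc2b-/- testes without overlap. In Morc2b-/- replicate 4, where Sycp1, Sycp2 and Sycp3 reached 735, 1016 and 661 CPM, Piwil1 was at 15.8 CPM, near the other mutant libraries. Clu, an abundant secreted chaperone of Sertoli cells, was at 5896 ± 375 CPM in wild type and 6515 ± 320 CPM in Morc2b-/- testes (SD, log2 fold change 0.14, SE 0.06, unadjusted p = 0.044, adjusted p = 0.9998, edgeR). Epididymal transcripts Spink8 (118 CPM), Crisp1 (84.4 CPM) and Ces5a (46.5 CPM) were highest in wild type replicate 1. In Morc2b-/- replicate 2 they were at 6.06, 5.73 and 1.62 CPM, and in the other 6 libraries the 6 listed epididymal genes summed to 0.143 to 0.745 CPM. Lcn8 and Defb12 of the same list stayed low in every library, at no more than 0.164 and 0.0714 CPM. Lcn5 received no count, but it has 3 listed transcripts whose shared reads are set aside, so this is not a measure of its level.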
